A study of Mus musculus with 6 samples.

Results

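The serpin gene family was followed in the liver of B6.C3H-6T and C57BL/6J mice. Its members were all genes whose symbol starts with Serpin and that the array's annotation pairs with at least 1 probe set of their own, which gave 40 genes of 18194 measured, read by 56 probe sets. Where a gene had several probe sets, the one with the highest mean over all 6 arrays represented it and the others were compared with it. By clade, the letter after Serpin in the symbol, 14 genes belonged to clade A, 18 to clade B, 2 each to clades F and I, and 1 each to clades C, D, G and H. Of the 40 genes 13 lie on chromosome 12, 11 on chromosome 13, 8 on chromosome 1, 7 on chromosomes 2, 3, 7, 11 and 16, and Serpina7 on the X chromosome. There were 0 members on chromosome 6.

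B6.C3H-6T is a congenic strain with low serum IGF-1, a C57BL/6J line into which C3H DNA on chromosome 6 was bred, and C57BL/6J is the background strain. Both groups were 3 female mice of 8 weeks fed chow, with liver RNA of 1 mouse on each array and no pooling. The limits of the C3H segment were not used here, and the strain is a single congenic line. Values are log2 expression values, each difference is the congenic mean minus the C57BL/6J mean, and a difference of 1 is a doubling of the signal.

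Serpins are proteins of a shared fold, and most are suicide inhibitors: the target protease cuts an exposed reactive loop, the serpin snaps shut, and the protease is trapped and cleared with it. Clade A and the plasma serpins of clades C, D, F and G are secreted, in large part by hepatocytes, and control clotting, fibrinolysis, complement and the elastase of neutrophils, while some clade A members carry hormones instead. Clade B serpins stay mainly inside cells and guard them against their own granule proteases, and Serpinh1 of clade H is a chaperone of collagen. Serpina12 encodes vaspin, a serpin named for visceral fat that inhibits the kallikrein Klk7.

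The arrays were closely alike, with medians between 6.07 and 6.11, and each pair correlated at 0.993 to 0.997 across probe sets, a description of features that are not independent. The medians were 6.11, 6.10 and 6.11 in B6.C3H-6T replicates 1, 2 and 3, against 6.09, 6.08 and 6.07 in C57BL/6J, with no overlap. B6.C3H-6T replicate 3 correlated slightly less with its own strain (mean 0.9962) than with C57BL/6J (mean 0.9964). B6.C3H-6T replicate 2 had the lowest means of the 6 arrays, 0.9961 with its own strain and 0.9937 with C57BL/6J. Results are therefore also given without each array. The hepatocyte markers Alb, Apoa1, Ttr, Cps1 and Tat were all measured, and their summed linear signal ran from 84953 to 87846 in B6.C3H-6T and from 78275 to 82834 in C57BL/6J. All 5 were higher in B6.C3H-6T, by 0.02 to 0.42. Cps1 (0.26) and Tat (0.42) had an unadjusted p under 0.05 in limma and no overlap, beside 6.34% of all genes higher at that level. The lowest adjusted p was 0.216, and the part of these markers in the Serpin differences was not tested. As a background level, probe sets of the Y-linked genes Eif2s3y, Kdm5d and Uty were used, which female mice lack. Their 9 probe sets had means from 3.41 to 4.93, and 28 of the 40 Serpin genes lay above the highest of them. The other 12 were 2 of clade A (Serpina1f and Serpina5), 9 of 18 of clade B, and Serpini2.

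In B6.C3H-6T liver 1 Serpin gene passed the test over all genes, and it was lower. Serpina12 fell, while its chromosomal neighbour Serpina4-ps1 and the X-linked Serpina7 were lower in every B6.C3H-6T mouse than in any C57BL/6J mouse without passing. The abundant plasma inhibitors, among them those of elastase, thrombin, plasmin and complement, showed no difference that passed. The test was limma over all probe sets, with Benjamini-Hochberg adjustment over the 18194 genes and 0.05 as the threshold. By it 0.0715% of all genes were called in either direction, with 0.0605% called lower and 0.011% higher. At an unadjusted p under 0.05, 3 of the 40 Serpin genes differed (7.5%), all lower and all of clade A, beside 12.1% of all genes in either direction, 5.8% lower and 6.34% higher. The count was 6 without B6.C3H-6T replicate 3 and 5 without C57BL/6J replicate 1 or 2. The strains did not overlap for 7 Serpin genes (17.5%), 4 lower and 3 higher, beside 17.8% of all genes, 7.49% lower and 10.3% higher. Counted in either direction, neither share was above that of all genes. The shares of lower genes were above it, on counts of 3 and 4 genes, and those of higher genes below it. The median difference of the 40 genes was 0.02, as it was over all genes (0.02), and 24 were higher and 16 lower, where 56.1% of all genes were higher and 43.9% lower. With each array centred on its median, the median over all genes was -0.009 and 5 Serpin genes did not overlap.

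Serpina12 was represented by the brighter of its probe sets. It had 7.44, 7.88 and 7.44 in B6.C3H-6T replicates 1, 2 and 3, against 8.61, 8.92 and 8.97 in C57BL/6J replicates 1, 2 and 3. Every B6.C3H-6T mouse lay below every C57BL/6J mouse, and the gap between the groups was wider than the range within either. The means were 7.59 ± 0.26 in B6.C3H-6T and 8.83 ± 0.20 in C57BL/6J (SD, n = 3 each). The gene fell by 1.24 ± 0.14 on the log2 scale (SE; 95% interval -1.55 to -0.94), a 2.37-fold lower signal (limma adjusted p = 0.0146), the tenth smallest p and the eighth largest fall of all genes. The other probe set had 5.15, 5.18 and 5.19 in B6.C3H-6T, against 5.56, 5.36 and 5.39 in C57BL/6J. Its groups did not overlap either, but its difference of -0.26 ± 0.07 was much smaller (limma adjusted p = 0.307 over all probe sets, of which 0.0577% were called), and its signal lay close to the Y-linked level. The direction was kept without each array, with differences from -1.39 to -1.17, but the call was lost without B6.C3H-6T replicate 1 or 3 or C57BL/6J replicate 2 or 3 (limma adjusted p from 0.0523 to 0.151). In these bulk samples fewer cells of a type and less RNA per cell cannot be told apart. The fat cell markers Adipoq, Lep and Retn, of which Adipoq lay below the highest Y-linked level on every array (4.25 to 4.40 in B6.C3H-6T and 4.08 to 4.35 in C57BL/6J), differed by 0.03 to 0.08. The 5 Kupffer cell markers, described with clade B, differed by -0.65 to -0.24, all lower. The part of either cell type in the Serpina12 difference was not tested.

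Serpina4-ps1, listed as a transcribed pseudogene, had 5.29, 5.35 and 5.72 in B6.C3H-6T, against 5.94, 6.11 and 6.13 in C57BL/6J. All 3 B6.C3H-6T mice were below all 3 C57BL/6J mice, and the highest of the congenic mice was replicate 3. The difference was -0.60 ± 0.11 (95% interval -0.86 to -0.34) and did not pass (limma adjusted p = 0.177), though it did without B6.C3H-6T replicate 3 (adjusted p = 0.0449; -0.74 to -0.52 without 1 array). Its other probe sets differed by -0.28 ± 0.10 and -0.19 ± 0.08, with unadjusted p from limma of 0.0185 and 0.0432. The representing probe set ends in _x_at, the array's mark for probes that may bind other transcripts too. It was dim, with a mean over all arrays of 5.76, below the median of all probe set means (6.10). In B6.C3H-6T replicates 1 and 2 it lay close to the Y-linked level.

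Serpina7 encodes the thyroxine-binding globulin, a carrier of thyroid hormone in plasma. It had 7.45, 6.47 and 7.59 in B6.C3H-6T, against 8.50, 8.06 and 8.34 in C57BL/6J. The strains did not overlap, and B6.C3H-6T replicate 2 was lowest by far. The difference was -1.13 ± 0.26 (95% interval -1.71 to -0.55; limma adjusted p = 0.221), the ninth lowest of all genes, and became -0.78 without B6.C3H-6T replicate 2, which still did not pass (adjusted p = 0.196). Its SD of 0.61 in B6.C3H-6T, against 0.22 in C57BL/6J, was the widest within a strain among the 40 genes. In B6.C3H-6T the mice were not ordered alike, since replicate 2 had the highest Serpina12 and the lowest Serpina7.

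**Figure D1:**
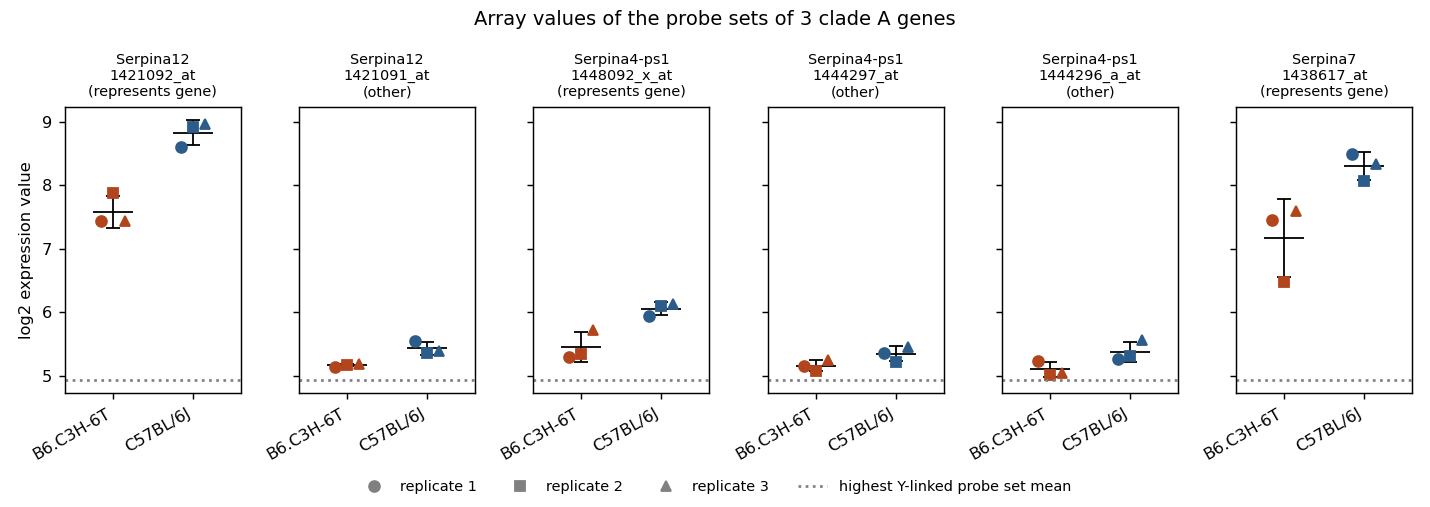
Log2 expression values on the 6 arrays for the probe sets of Serpina12, Serpina4-ps1 and Serpina7, with B6.C3H-6T left of C57BL/6J in each panel. Points are mice, the black line and bar are the mean and SD of 3 mice, and the dotted line is the highest mean of a Y-linked probe set (4.93); the representing probe set of each gene shows no overlap between the strains, while the other probe sets lie close to the dotted line.

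The stretches of 250 bases before a transcription start of Serpina12 and Serpina7, whose differences were the widest of the family, and of Serpina11, a near neighbour of Serpina12 that did not pass, are shown for comparison. Serpina7 and Serpina11 had 2 entries each, and only the first listed was used. They were taken from RefSeq on build GRCm38.p6, where 34 of the 40 genes had an entry, and all are read 5′ to 3′ on the minus strand, at chr12:104044444-104044693, chrX:139085237-139085486 and chr12:103989958-103990207. Capitals mark matches, on either strand, to short motifs of factors active in liver, which were chosen with the sequences known. These were TTCNNNGAA for STAT proteins, TTGCNNAA for C/EBP, TGTTTAC or TATTTAC for FOXA, AGGTCA for nuclear receptors, GTTAAT for HNF1, and TATAAA for the TATA box.
Serpina12: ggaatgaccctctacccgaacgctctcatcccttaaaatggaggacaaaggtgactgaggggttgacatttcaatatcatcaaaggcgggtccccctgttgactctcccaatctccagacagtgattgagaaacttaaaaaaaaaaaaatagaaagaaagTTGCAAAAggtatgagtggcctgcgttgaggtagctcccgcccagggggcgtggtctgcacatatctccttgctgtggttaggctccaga
Serpina7: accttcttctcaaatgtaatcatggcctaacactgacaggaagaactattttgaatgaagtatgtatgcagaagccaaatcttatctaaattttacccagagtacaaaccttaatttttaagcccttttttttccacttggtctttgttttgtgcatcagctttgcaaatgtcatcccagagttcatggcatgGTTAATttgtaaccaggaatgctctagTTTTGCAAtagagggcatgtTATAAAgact
Serpina11: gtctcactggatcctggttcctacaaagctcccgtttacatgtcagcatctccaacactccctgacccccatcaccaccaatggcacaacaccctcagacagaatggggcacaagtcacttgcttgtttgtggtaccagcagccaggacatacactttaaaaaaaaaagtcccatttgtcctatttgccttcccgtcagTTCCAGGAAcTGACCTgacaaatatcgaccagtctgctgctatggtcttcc
The Serpina12 stretch held 1 match, for C/EBP, at -90 to -83 relative to the start. The Serpina7 stretch held 1 match for C/EBP, 1 for HNF1 and 1 TATAAA, and that of Serpina11 held 1 for STAT and 1 for nuclear receptors, with no overlap among them. None of the 3 stretches held a FOXA match. Among 32817 such windows of all genes the C/EBP motif was found in 9.57%, the HNF1 motif in 6.44%, TATAAA in 12.4%, the STAT motif in 7.01%, the nuclear receptor motif in 14.0% and the FOXA motifs in 5.76%. A match describes letters in the C57BL/6J reference and not a bound site.

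Along chromosome 12 the 13 tested Serpina genes follow each other with 0 other tested genes between them, in the order of a RefSeq gene table of GRCm38.p6. Serpina12 and Serpina4-ps1 are next to each other among the tested genes, and they were the only members of the stretch whose strains did not overlap. On the side of Serpina12, Serpina9 differed by 0.11 ± 0.09. Serpina11 had 9.99, 9.56 and 10.06 in B6.C3H-6T, against 9.95, 10.18 and 10.28 in C57BL/6J, with overlap and a difference of -0.27 ± 0.14 (limma adjusted p = 0.469). On the side of Serpina4-ps1, Serpina5, the protein C inhibitor gene, differed by 0.02 ± 0.06, at a signal below the Y-linked level. The genes flanking the stretch, Ifi27, Ifi27l2b and Ppp4r4 on the side of Serpina10 and Gsc, Dicer1 and Clmn on the side of Serpina3n, differed by -0.10 to 0.13.

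**Figure D2:**
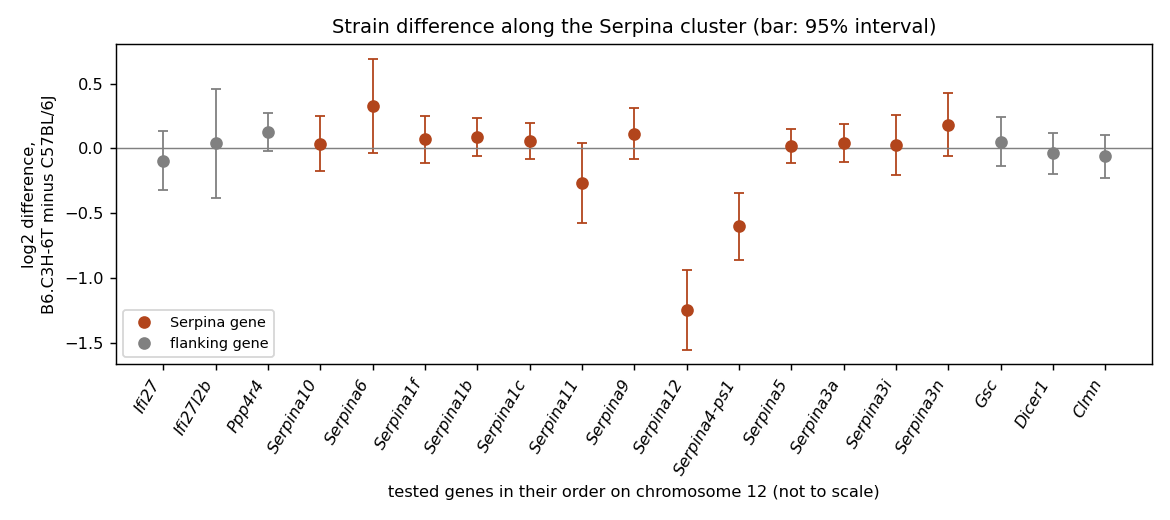
Log2 difference between the strains (B6.C3H-6T minus C57BL/6J, limma, bars are 95% intervals) for the tested Serpina genes of chromosome 12 and 3 tested genes on each side, in gene order and not to scale. Serpina12 (-1.24) and the adjacent Serpina4-ps1 (-0.60) lie below 0 with their whole intervals, and all others include 0.

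The other clade A genes did not pass. Serpina6, which encodes the corticosteroid-binding globulin, had 12.91, 12.36 and 12.54 in B6.C3H-6T, against 12.50, 12.35 and 11.98 in C57BL/6J. The strains overlapped, with a difference of 0.33 ± 0.16 (95% interval -0.04 to 0.69; limma adjusted p = 0.455), the highest of the family. These 2 hormone carriers of clade A thus had differences of opposite sign, negative for Serpina7 and positive for Serpina6, whose interval included 0.

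The genes of alpha-1 antitrypsin, the elastase inhibitor made by hepatocytes, were measured by probe sets near the top of the scale. Serpina1b had 14.30, 14.32 and 14.25 in B6.C3H-6T, against 14.18, 14.27 and 14.15 in C57BL/6J. The groups overlapped, and the difference was 0.09 ± 0.06 (95% interval -0.06 to 0.24). Serpina1c differed by 0.06 ± 0.06 (95% interval -0.08 to 0.20), and the second probe set of Serpina1b by 0.10 ± 0.06. These genes are near-identical copies, so a signal may hold RNA of several of them, and the highest value of any probe set was 14.56, which leaves little room above them. Serpina3n, an acute phase gene related to antichymotrypsin, had 11.05, 11.26 and 11.20 in B6.C3H-6T, against 10.76, 11.15 and 11.05 in C57BL/6J, and differed by 0.18 ± 0.11 with overlap. Serpina10, the gene of the inhibitor that acts with protein Z on clotting factor X, differed by 0.04 ± 0.09. The remaining clade A genes, Serpina1f, Serpina3a and Serpina3i, differed by 0.02 to 0.07, all with overlap.

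**Figure D3:**
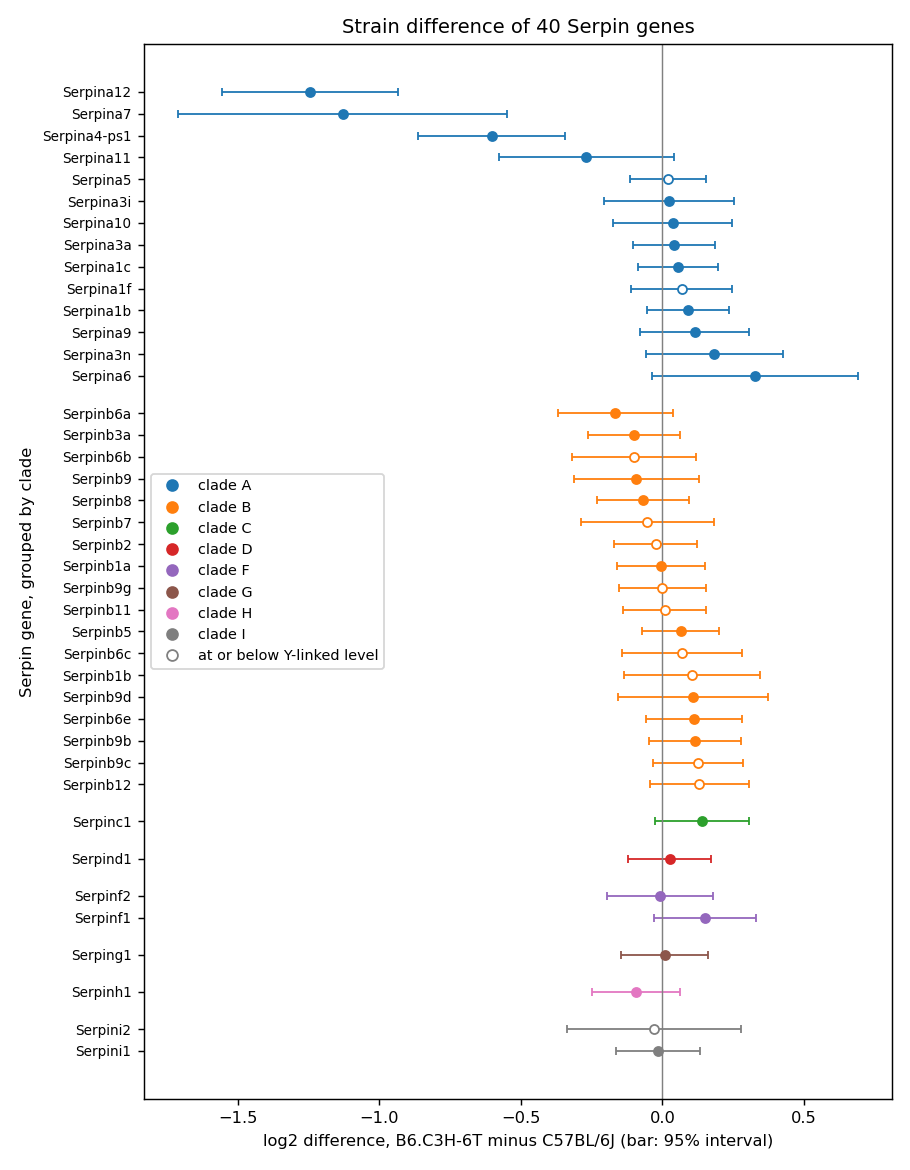
Log2 difference between the strains (B6.C3H-6T minus C57BL/6J) for the 40 Serpin genes, 1 row per gene, grouped and coloured by clade, with limma's 95% interval as bars and open points for the 12 genes at or below the Y-linked level. The intervals of Serpina12, Serpina7 and Serpina4-ps1 exclude 0, and those of the other 37 genes include it.

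None of the 5 plasma serpins of clades C, D, F and G passed, and the strains overlapped for each. Serpinc1, which encodes antithrombin, had 13.71, 13.72 and 13.60 in B6.C3H-6T, against 13.55, 13.62 and 13.43 in C57BL/6J. Its groups overlapped, and it differed by 0.14 ± 0.07 (95% interval -0.03 to 0.31; limma adjusted p = 0.485). Serpind1, the gene of heparin cofactor II, another inhibitor of thrombin, had 12.38, 12.35 and 12.33 in B6.C3H-6T, against 12.32, 12.40 and 12.26 in C57BL/6J, and differed by 0.03 ± 0.06 (95% interval -0.12 to 0.17). Serpinf2 encodes the plasmin inhibitor antiplasmin. It had 13.04, 12.80 and 12.86 in B6.C3H-6T, against 12.84, 13.01 and 12.87 in C57BL/6J, and differed by -0.01 ± 0.08 (95% interval -0.20 to 0.18). Serping1, the gene of the inhibitor of the complement proteases C1r and C1s, had 12.69, 12.53 and 12.63 in B6.C3H-6T, against 12.56, 12.65 and 12.61 in C57BL/6J, with a difference of 0.01 ± 0.07 (95% interval -0.15 to 0.16). Serpinf1 encodes the pigment epithelium-derived factor, which does not inhibit proteases. It had 13.01, 12.89 and 12.76 in B6.C3H-6T, against 12.74, 12.80 and 12.67 in C57BL/6J, and differed by 0.15 ± 0.08, with 0.16 ± 0.08 for its second probe set. The 5 intervals allow differences of no more than 0.33 in either direction. With each array centred on its median, the sign turned for Serpind1 (-0.00026) and Serping1 (-0.018).

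Serpinh1 encodes the collagen chaperone of clade H, and its probe sets gave unlike sizes. The brighter one had 7.93, 7.86 and 7.92 in B6.C3H-6T, against 8.04, 8.06 and 7.89 in C57BL/6J, and differed by -0.09 ± 0.07 with overlap. Its name ends in _x_at, so its probes may bind other transcripts too. The other had 6.80, 6.65 and 6.70 in B6.C3H-6T, against 6.98, 6.95 and 6.97 in C57BL/6J, with no overlap and a difference of -0.25 ± 0.07 (unadjusted p = 0.00465 from limma, adjusted p = 0.307 over all probe sets). Of the collagen genes and other markers of stellate cells and fibroblasts, 4 of 5 were higher and 1 lower, at -0.05 to 0.18, and their summed linear signal ran from 3046 to 3138 in B6.C3H-6T and from 2731 to 3343 in C57BL/6J. Serpini1, the neuroserpin gene, differed by -0.02 ± 0.07, and Serpini2 by -0.03 ± 0.14 at a signal below the Y-linked level.

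In clade B 0 of 18 genes passed in limma and 0 had an unadjusted p under 0.05, beside 12.1% of all genes, with differences from -0.17 to 0.13. Serpinb6a, an inhibitor of granule proteases, was the lowest, at 8.80, 8.55 and 8.85 in B6.C3H-6T, against 8.82, 8.97 and 8.92 in C57BL/6J. It differed by -0.17 ± 0.09 (limma adjusted p = 0.498). Serpinb1a, the gene of the leukocyte elastase inhibitor, had 8.39, 8.38 and 8.36 in B6.C3H-6T, against 8.48, 8.35 and 8.31 in C57BL/6J, and differed by -0.0048 ± 0.07 (95% interval -0.16 to 0.15). Serpinb9, whose product inhibits granzyme B, differed by -0.09 ± 0.10. Serpinb6e and Serpinb9b differed by 0.11 ± 0.07 each. The probe sets of Serpinb6e and Serpinb3a end in _x_at and may bind other transcripts too. The strains did not overlap for 4 of the 18 genes (22.2%, beside 17.8% of all genes), Serpinb3a, which was lower, and Serpinb5, Serpinb9c and Serpinb12, which were higher. These 4 differences ran from -0.10 to 0.13, and Serpinb9c and Serpinb12 lay below the Y-linked level. The other clade B genes, Serpinb1b, Serpinb2, Serpinb6b, Serpinb6c, Serpinb7, Serpinb8, Serpinb9d, Serpinb9g and Serpinb11, differed by -0.10 to 0.11, all with overlap. The Kupffer cell markers Adgre1, Cd5l, Clec4f, Marco and Vsig4 were all lower in B6.C3H-6T (5 of 5, at -0.65 to -0.24, each at an unadjusted p under 0.05 in limma, beside 5.8% of all genes lower at that level, but with a lowest adjusted p of 0.33). Their summed linear signal ran from 3921 to 4770 in B6.C3H-6T and from 5018 to 6039 in C57BL/6J, and 0 of the 5 were at the Y-linked level. Clec4f, like the fat cell marker Lep, lies on chromosome 6, which carries the C3H DNA, and its part in their values was not tested. The part of the Kupffer cell markers in the Serpin differences was not tested either.

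Beyond the representing probe sets, 12 of the 40 genes had others, 16 in all. Of these 11 had the same sign as the representing probe set and 5 the opposite sign. At an unadjusted p under 0.05 in limma 4 of the 16 differed, all lower (Serpina12, 2 of Serpina4-ps1, and Serpinh1), beside 10.6% of all probe sets in either direction and 4.82% lower. For 0 genes did 2 probe sets differ in opposite directions at that level, and the other 28 genes, with Serpina7 among them, rest on a single probe set.

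**Figure D4:**
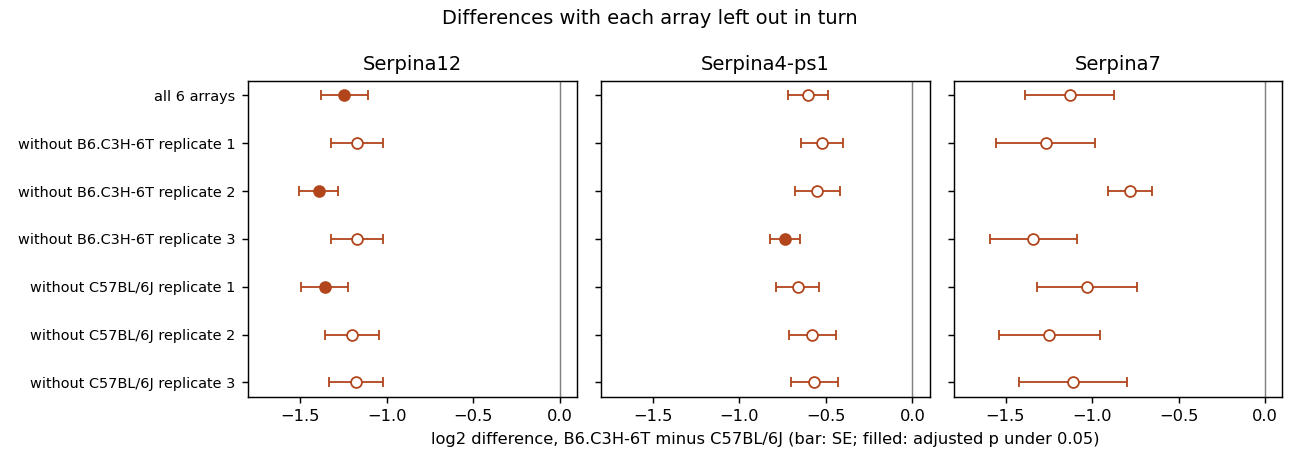
Log2 difference (B6.C3H-6T minus C57BL/6J, bars are SE) of Serpina12, Serpina4-ps1 and Serpina7 with all 6 arrays and without each array in turn; filled points have an adjusted p under 0.05. All points lie below 0; Serpina12 is filled in 3 of 7 rows, Serpina4-ps1 only without B6.C3H-6T replicate 3, and Serpina7 in none.

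The partners of serpins were described with 4 lists. In these lists 0 genes passed over all genes in limma. An unadjusted p under 0.05 was found for 12 of 64 measured members, a larger share than the 12.1% of all genes. Of these 12, 6 were in the list of transcription factors. Of 26 measured target proteases 3 had such a p (11.5%, beside 12.1% of all genes), 1 lower and 2 higher. F11, the gene of a clotting protease, had 9.40, 9.25 and 9.32 in B6.C3H-6T, against 9.46, 9.93 and 9.71 in C57BL/6J, with no overlap and a difference of -0.37 ± 0.11. Ctsl, a lysosomal protease gene, and F7, whose product starts clotting, differed by 0.22 ± 0.07 and 0.20 ± 0.07. Klk7, the protease that vaspin inhibits, had 6.39, 6.14 and 6.16 in B6.C3H-6T, against 6.08, 6.14 and 5.99 in C57BL/6J, and differed by 0.16 ± 0.08 with overlap (limma adjusted p = 0.497). The summed linear signal of 4 keratinocyte markers, genes of a cell type rich in kallikreins, ran from 290 to 309 in B6.C3H-6T and from 248 to 278 in C57BL/6J, and its part in the Klk7 value was not tested.

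Of 15 measured partners in binding, folding and clearance 1 had an unadjusted p under 0.05 (6.67%, beside 12.1% of all genes). This was Thbd, whose product thrombomodulin turns thrombin towards protein C, with a difference of 0.38 ± 0.11 and no overlap. The chaperone gene Hspa5, whose product has been described as a binding partner of vaspin, differed by 0.15 with overlap (unadjusted p = 0.201 from limma).

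Of 10 measured hormone carriers, hormone-handling genes and serpins with another symbol, 2 had such a p (20%, beside 12.1% of all genes). Of the 10, 8 were higher and 2 lower, and the strains did not overlap for 5 (50%, beside 17.8% of all genes). Dio1, the gene of the deiodinase that activates thyroid hormone in liver, had 11.03, 10.18 and 10.80 in B6.C3H-6T, against 11.11, 11.38 and 11.04 in C57BL/6J. The difference was -0.51 ± 0.19 with no overlap, and B6.C3H-6T replicate 2 was lowest here as it was for Serpina7. That mouse was also the lowest of its strain for Serpina11, F11, Foxa3 and Stat5a, so this is not particular to Dio1 and Serpina7. Without that mouse the Dio1 difference was -0.26, with an unadjusted p of 0.0579 from limma. Hsd11b1, whose product regenerates glucocorticoid in liver, had 13.31, 13.36 and 13.16 in B6.C3H-6T, against 13.12, 13.14 and 12.94 in C57BL/6J, and differed by 0.20 ± 0.08. Agt, which encodes angiotensinogen, a serpin by fold that gives rise to a peptide hormone, differed by 0.14 ± 0.06 with no overlap (limma adjusted p = 0.414).

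Of 13 measured genes of transcription factors known from liver serpin genes 6 had an unadjusted p under 0.05 (46.2%, beside 12.1% of all genes), 3 higher and 3 lower. The list was chosen with earlier results of these data known, so this share is a description and cannot test the list. Foxa2, a pioneer factor gene of liver, had 9.63, 9.40 and 9.32 in B6.C3H-6T, against 8.93, 9.03 and 8.96 in C57BL/6J, and differed by 0.47 ± 0.09 (limma adjusted p = 0.162). Its relative Foxa3 had 9.90, 9.13 and 9.55 in B6.C3H-6T, against 9.92, 10.29 and 10.16 in C57BL/6J, and differed by -0.60 ± 0.18, so the 2 genes went opposite ways with no overlap in either. Stat5a, a gene of a growth hormone signal transducer, differed by -0.61 ± 0.13, Onecut1 by 0.47 ± 0.13, and the nuclear receptor gene Nr1i3 by -0.21 ± 0.08. Stat5b, the relative of Stat5a in the same list, differed by -0.0019 ± 0.10 with overlap. Hnf4a and Cebpa, main activators of liver serpin genes, differed by 0.02 and 0.05 with overlap. Cebpb, a relative of Cebpa, differed by 0.28 ± 0.11 with overlap (unadjusted p = 0.0381 and adjusted p = 0.389 from limma).

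**Figure D5:**
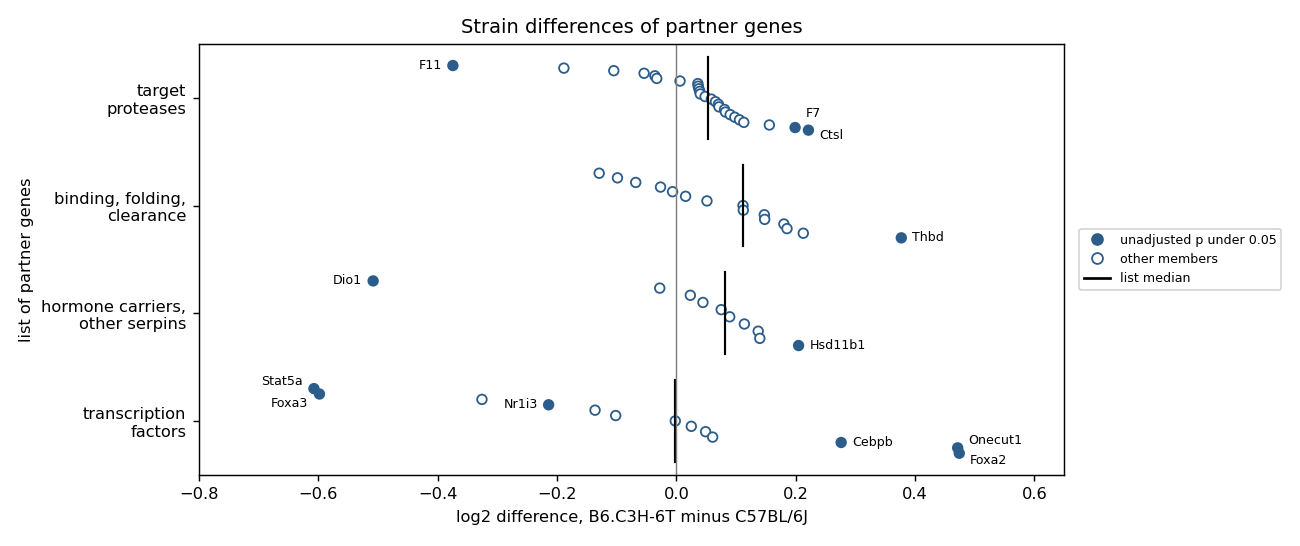
Log2 differences (B6.C3H-6T minus C57BL/6J) of the 64 measured partner genes in 4 lists; each point is a gene, filled where its unadjusted p was under 0.05 in limma, and the black line is the list's median. The transcription factor genes spread widest, from -0.61 to 0.47, and 0 points passed after adjustment over all genes.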

How the data were processed

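Liver RNA of 6 mice was measured on Affymetrix expression arrays, 3 per strain. Per the submitters' processing notes, the deposited log2 values were made by the authors with RMA from the affy package, 1 value per probe set and array. Image quantification with the scanner's operating software and labelling from an oligo(dT) primer are given per the labels' protocols, with no version of RMA or affy stated. Deposited values ran from 3.14 to 14.56.

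Of 45101 probe sets 64 controls were left out and 45037 were fitted with limma 3.58.1 in R 4.3.3 (lmFit, eBayes, no covariate). Benjamini-Hochberg adjustment covered 18194 genes, named through the platform annotation with symbols updated by gene identifier to RefSeq (GRCm38.p6), or over all probe sets where stated. An adjusted p under 0.05 was called. Intervals of 95% come from limma's moderated variances. The number of arrays limits the precision. No batch was given.

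The members and lists were chosen with earlier results of these data known. Genes named by rule were Serpina12, called genes, in each clade up to 4 of smallest p and 2 more of highest mean, and list members at an unadjusted p under 0.05, up to 5 per list. Not all of them are given with the values of each array. Other members, Serpina11 and Serpina3n with full values among them, were named to account for the family. Klk7, Hspa5, Agt, Hnf4a, Cebpa, Cebpb, Stat5b and the flanking genes were named after their values were seen. Replicate numbers follow accession order and pair no mice. The fit was tested on simulated data. Alternatives left out each array, centred arrays, removed dim probe sets, changed the representing probe set, the moderation, the adjustment and the fitted table.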

Additional observations from a re-analysis of the deposited data

How the results depend on the processing

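Over 15 alternatives, of which the fit on 1 probe set per gene was chosen after seeing the data, Serpina12 stayed lower, from -1.39 to -0.75, with -0.75 from the mean of its probe sets. It lost its call in limma without B6.C3H-6T replicate 1 or 3 or C57BL/6J replicate 2 or 3, with differences from -1.39 to -1.17 over all single arrays left out (adjusted p 0.00793 to 0.151), and kept it under each other alternative. Apart from the mean of its probe sets, the same probe set stood for Serpina12 in all of them, also as the probe set of median p. Without 1 array the count of called genes ran from 6 to 15 in place of 13 (7 without B6.C3H-6T replicate 2, 6 without C57BL/6J replicate 2 or 3), and that of called Serpin genes from 0 to 1. It was 0 without B6.C3H-6T replicate 1 or C57BL/6J replicate 2 or 3, and the 1 gene without B6.C3H-6T replicate 3 was Serpina4-ps1. Serpin genes at an unadjusted p under 0.05 numbered 3 to 6 without 1 array (6 without B6.C3H-6T replicate 3, 5 without C57BL/6J replicate 1 or 2), in place of 3. Those without overlap numbered 9 to 15, in place of 7, since fewer arrays separate by construction. They numbered 5 with centred arrays and 2 among the 20 Serpin genes above the median of all probe sets. Partner genes called were 0 under each alternative. Of 31 named genes 6 turned sign, all near 0 and none at an unadjusted p under 0.05 where turned. Without 1 array Serpinb1a ran from -0.041 to 0.047, Serpind1 from -0.0075 to 0.060, Serpinf2 from -0.078 to 0.043, Serping1 from -0.029 to 0.052, Serpini1 from -0.039 to 0.019 and Serpini2 from -0.16 to 0.079. With the mean of all probe sets Serpinb1a was at 0.0038 and Serpini1 at 0.013, with the probe set of median p Serpinb1a was at 0.012 and Serpini1 at 0.018, and with centred arrays Serpind1 was at -0.00026 and Serping1 at -0.018. Centring lowered every difference by the same amount, since the B6.C3H-6T array medians were the higher ones. For the other turns of sign the cause was not tested. Without probe sets marked as shared Serpina4-ps1 was at -0.19. Dio1 ran from -0.69 to -0.26 and Serpina7 from -1.34 to -0.78 without 1 array. No paired analysis was possible because the labels give no shared replicate numbers. With 3 mice per strain and no detection calls, small differences of dim probe sets are beyond reach.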

Other observations

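Beside the probe sets paired with a single gene, 3 probe sets were paired with several genes, Serpin genes among them, and entered no comparison of named genes. The one paired with 4 genes averaged 6.04 in B6.C3H-6T and 6.09 in C57BL/6J, a difference of -0.05 ± 0.13 (SE). The one paired with 2 genes averaged 13.35 in B6.C3H-6T and 13.39 in C57BL/6J (-0.04 ± 0.07), and the one paired with 3 genes 10.47 in B6.C3H-6T and 10.52 in C57BL/6J (-0.04 ± 0.07). None was called by limma over all probe sets, with unadjusted p from 0.582 to 0.685.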
